A study of Homo sapiens with 8 samples.

Results

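The genes examined here make or assemble ribosomes: the ribosomal RNA (rRNA) precursor gene RNA45SN5, the RNA polymerase I machinery that transcribes it, nucleolar factors that process and modify rRNA, and MYC, a transcription factor that drives many of these genes. The list held 36 genes, grouped by their known function. Of these, 32 had at least 1 probe set annotated to that gene alone, among 19775 such genes on the array, and together they had 70 probe sets. BOP1, NOP56, DKC1 and GNL3 had none in the annotation used and were not analysed here.

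Expression was measured on Affymetrix U133 Plus 2.0 arrays in Reh cells, an established line from a B-cell precursor acute lymphoblastic leukaemia. All 4 groups were transfected: mock cells with control constructs, another group with IRF5-4D, a constitutively active form of the transcription factor IRF5, another with IKKβ(EE), a constitutively active form of the kinase that activates NF-κB, and the last with both, called the combination here. Each group had 2 arrays, numbered 1 and 3 and said to be biological duplicates, so their number limits the precision and p-values measure the spread between these arrays. The sources used here do not state the vector, its promoter, the share of cells transfected or the time of harvest.

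Ribosome production starts in the nucleolus, where RNA polymerase I transcribes a long precursor that holds the 18S, 5.8S and 28S rRNAs. Small nucleolar RNA-protein complexes modify this precursor, and large assemblies of processing factors cut it and fold it into the small and the large subunit. Growing lymphoid cells keep this pathway at a high rate, and the precursor itself is short-lived.

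The values are log2 expression values made by RMA, which normalizes between arrays, and array medians were at most 5.14. Duplicate arrays had a correlation of 0.994 to 0.997. Of 9 measured B-lineage markers 8 lay above the array medians, with PAX5, EBF1, DNTT and IGLL1 at means of 12.99, 12.86, 14.1 and 12.7 over all arrays, while VPREB1 was at 4.21. The markers CD3D, CD3E, CD14, LYZ and EPCAM had means of 4.81, 4.45, 4.15, 3.42 and 3.05. Other markers of non-B cells read higher, with CD4, CSF1R and COL1A1 at 6.14, 5.85 and 7.55. Above the array medians lay 2 of 8 T and NK cell, 2 of 6 myeloid and 4 of 9 stromal and epithelial markers. Of 8 T and NK cell markers NKG7 rose by 1.34 (SE 0.19) in the combination against mock, of 9 stromal and epithelial markers CDH1 rose by 4.96 (SE 0.44), and of 6 myeloid markers none changed (limma adjusted p under 0.05, with 0 myeloid markers at an unadjusted p under 0.05). The log2 summed level of the stromal and epithelial list was 8.60 to 8.72 in mock and 9.04 to 9.78 in the combination, that of the T and NK cell list 7.97 to 7.99 and 7.94 to 8.10, and that of the myeloid list 7.38 to 7.55 and 7.09 to 7.39. The part of these markers in the results below was not tested.

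RNA45SN5, the gene of the 45S rRNA precursor, was lower in the combination than in any other group. On probe set 225762_x_at it read 9.73 and 10.21 in mock cells, 10.01 and 11.09 with IRF5-4D, 10.77 and 10.88 with IKKβ(EE), and 7.68 and 7.89 in the combination (arrays 1 and 3, log2). Both combination arrays lay below all 6 others, and the groups of the single constructs did not lie below mock. On probe set 225767_at the values were 9.08 and 9.35 in mock, 9.18 and 10.19 with IRF5-4D, 9.71 and 10.09 with IKKβ(EE), and 7.60 and 7.88 in the combination. The order of the groups was the same on both probe sets.

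**Figure D1:**
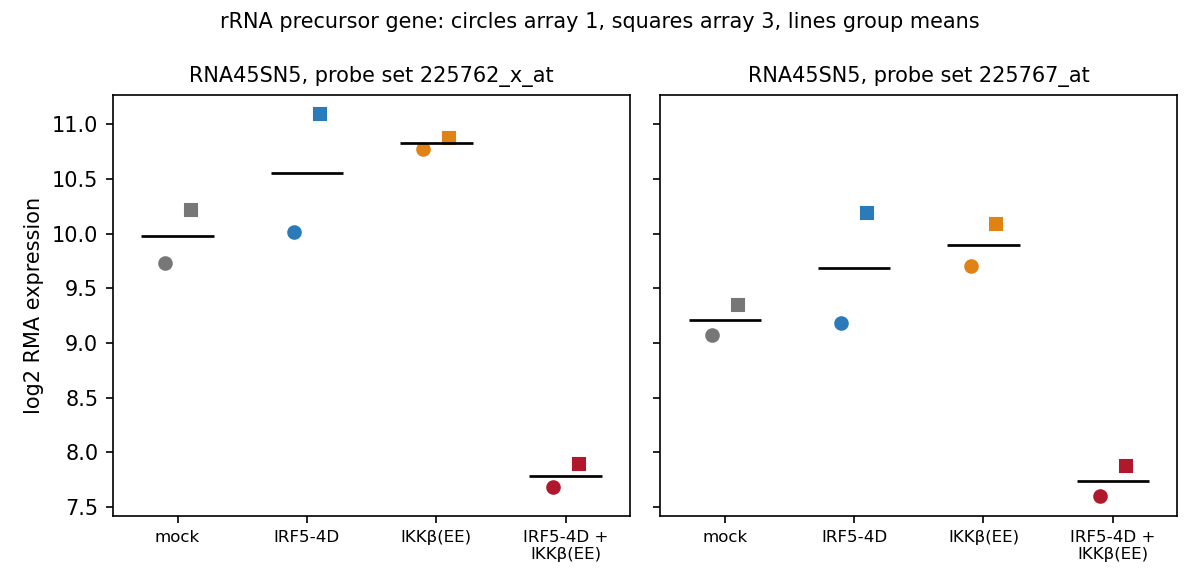
Log2 RMA expression (vertical axis) of the RNA45SN5 probe sets 225762_x_at and 225767_at in the 4 transfection groups, with circles for array 1, squares for array 3 and lines for the group means of 2 arrays. The combination arrays sit between 7.60 and 7.89, below the lowest other array at 9.08.

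Against mock, RNA45SN5 fell: the log2 difference was -2.19 (SE 0.30, 95% interval -2.87 to -1.50), which is 4.56-fold (limma adjusted p = 0.00512 over all genes). It was also lower than with IRF5-4D, by a log2 difference of -2.77 (SE 0.30) or 6.80-fold (adjusted p = 0.00300), and lower than with IKKβ(EE), by -3.04 (SE 0.30) or 8.22-fold (adjusted p = 0.00110). The difference from mock was -2.05 between arrays 1 and -2.32 between arrays 3. Its fall was the second in size of 99 genes called lower in the combination against mock. The probe set 225767_at differed from mock by -1.47 (SE 0.29, limma adjusted p = 0.0308 in the fit of every probe set). That call was lost without mock replicate 1 (-1.61), mock replicate 3 (-1.34), combination replicate 1 (-1.33) or combination replicate 3 (-1.61), with adjusted p from 0.0692 to 0.155.

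With a single construct RNA45SN5 did not pass the test. It read 0.58 (SE 0.30) above mock with IRF5-4D (limma adjusted p = 0.968) and 0.85 (SE 0.30) above mock with IKKβ(EE) (adjusted p = 0.530). The SD of the 2 IRF5-4D arrays was 0.77, and without IRF5-4D replicate 3 the difference from mock was 0.037. With IKKβ(EE) both arrays lay above both mock arrays.

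The interaction asks whether the combination differs from the sum of both single-construct differences. For RNA45SN5 that sum was 1.43 and the measured difference was -2.19, which made an interaction of -3.62 (SE 0.43, limma adjusted p = 0.0238). It was the lowest interaction of all 19775 genes, and 1 of 6 called below 0. On probe set 225767_at the interaction was -2.64 (SE 0.41) and did not pass (adjusted p = 0.0848 in the fit of every probe set). The call at gene level was lost without mock replicate 1 (-3.38), IRF5-4D replicate 3 (-3.08), IKKβ(EE) replicate 1 (-3.67), IKKβ(EE) replicate 3 (-3.56) or combination replicate 1 (-3.51), with adjusted p from 0.059 to 0.135. Among the 32 members RNA45SN5 was the 1 with a called interaction (0.126% of all genes were called).

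**Figure D2:**
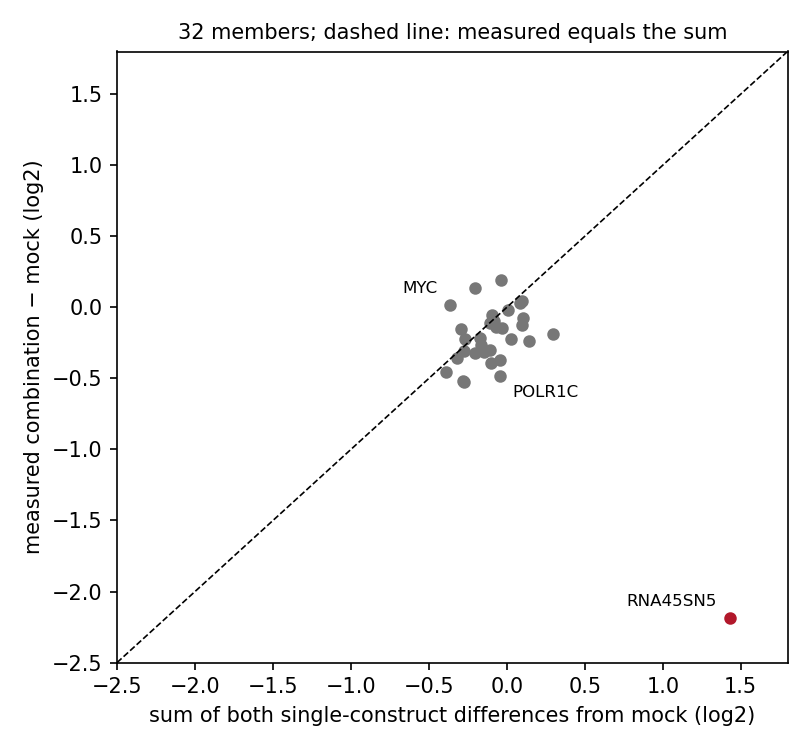
Sum of both single-construct log2 differences from mock (horizontal axis) against the measured log2 difference of the combination from mock (vertical axis), with 1 point for each of 32 members and a dashed line where both are equal. All values share the mock arrays. RNA45SN5 lies at 1.43 and -2.19, and the other members lie within 0.53 of 0 on the vertical axis.

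What these probe sets measure has limits. RefSeq lists 5 near-identical precursor genes, RNA45SN1 to RNA45SN5, which the probes may not tell apart, and a name ending in _x_at marks a probe set that may bind several transcripts. Where in the precursor the probes lie, and how the RNA was primed for labelling, is not stated in those sources, so the signal cannot be assigned to the precursor rather than to mature rRNA. The array also carries 6 control probe sets of the series AFFX-HUMRGE and AFFX-M27830, for which the annotation used names no gene. Their combination means differed from mock by -0.35 to 0.086, and none passed (smallest adjusted p = 0.441). In total RNA from a cell population, fewer cells with a transcript and less of it per cell cannot be told apart.

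RNA integrity was read from control probe sets at both ends of ACTB and GAPDH. The gap between the 3′ and the 5′ probe set of ACTB was 1.36 and 1.37 in mock, 1.27 and 1.01 with IRF5-4D, 1.11 and 0.98 with IKKβ(EE), and 1.06 and 1.06 in the combination (log2). For GAPDH it was 0.30 and 0.29 in mock and 0.20 to 0.24 on the other 6 arrays. The 6 arrays other than mock lay below mock in both gaps, and the part of RNA integrity in the results was not tested.

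None of the other 31 members passed the test at gene level in any comparison. In the combination against mock 0 of 31 were called, against 3.16% of all genes called in either direction and 0.501% called lower. Their differences ranged from -0.53 for RRP12 to 0.19 for POLR1E, and 26 of 31 lay below 0, a share of 83.9% beside 55.6% of all genes. Their median was -0.22, beside -0.027 over all genes. All genes include those of low level, and a share among genes of like level is not given here. The members had mean levels from 6.0 to 14.0, above the array medians. Within the arrays numbered 1 the median difference was -0.17, with 27 of 31 lower, and within those numbered 3 it was -0.15, with 25 of 31 lower. The array number also went with a shift in the single-construct groups and in mock. Below the mock mean lay 26 of 31 members on array 1 of IRF5-4D and 26 of 31 on array 1 of IKKβ(EE), against 14 and 13 on arrays 3. In the combination 27 and 23 did so on arrays 1 and 3. In mock, whose 2 arrays make that mean, 20 of 31 did so on array 1 and 11 on array 3. The part of this shift in the members' differences was not tested. Without mock replicate 3 the median was -0.14, and over all fits with 1 array left out 23 to 28 of 31 lay below 0. At an unadjusted p under 0.05 in limma 7 of 31 were lower and 0 higher, while 7.5% of all genes were lower at that threshold. In either direction 3167 of 19775 genes were at that threshold, and this share stands beside the counts by role below.

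In 20 of the 31 both combination arrays lay below both mock arrays (25.1% of all genes did so), and in POLR1E both lay above (19.4% of all genes). In 9 of them, POLR1A, POLR1C, TAF1D, NCL, WDR43, BYSL, RRP12, NOP16 and NIP7, both combination arrays lay below all 6 others, as in 8.02% of all genes, and in POLR1E both lay above all 6 others, as in 8.13%. With IRF5-4D alone 0 of 32 members passed (0.319% of all genes did), 0 of 32 had an unadjusted p under 0.05 (5.14% of all genes did), and the median of the 31 was -0.041, with 25 of 31 below 0 beside 54.3% of all genes. In 4 of 31 both IRF5-4D arrays lay below both mock arrays (17.8% of all genes). With IKKβ(EE) alone 0 of 32 passed (0.516% of all genes did), 2 of 32 had an unadjusted p under 0.05 (7.25% of all genes did), namely RNA45SN5 and MYC, and the median of the 31 was -0.059, with 21 of 31 below 0 beside 56.2% of all genes. In 6 of 31 both IKKβ(EE) arrays lay below both mock arrays (21.2% of all genes). Against each single construct the combination had 1 called member, RNA45SN5 (1.41% of all genes were called against IRF5-4D and 1.72% against IKKβ(EE)). The interaction of the 31 had a median of -0.069, with 25 of 31 below 0 beside 46.7% of all genes. The comparisons with mock share the mock arrays.

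**Figure D3:**
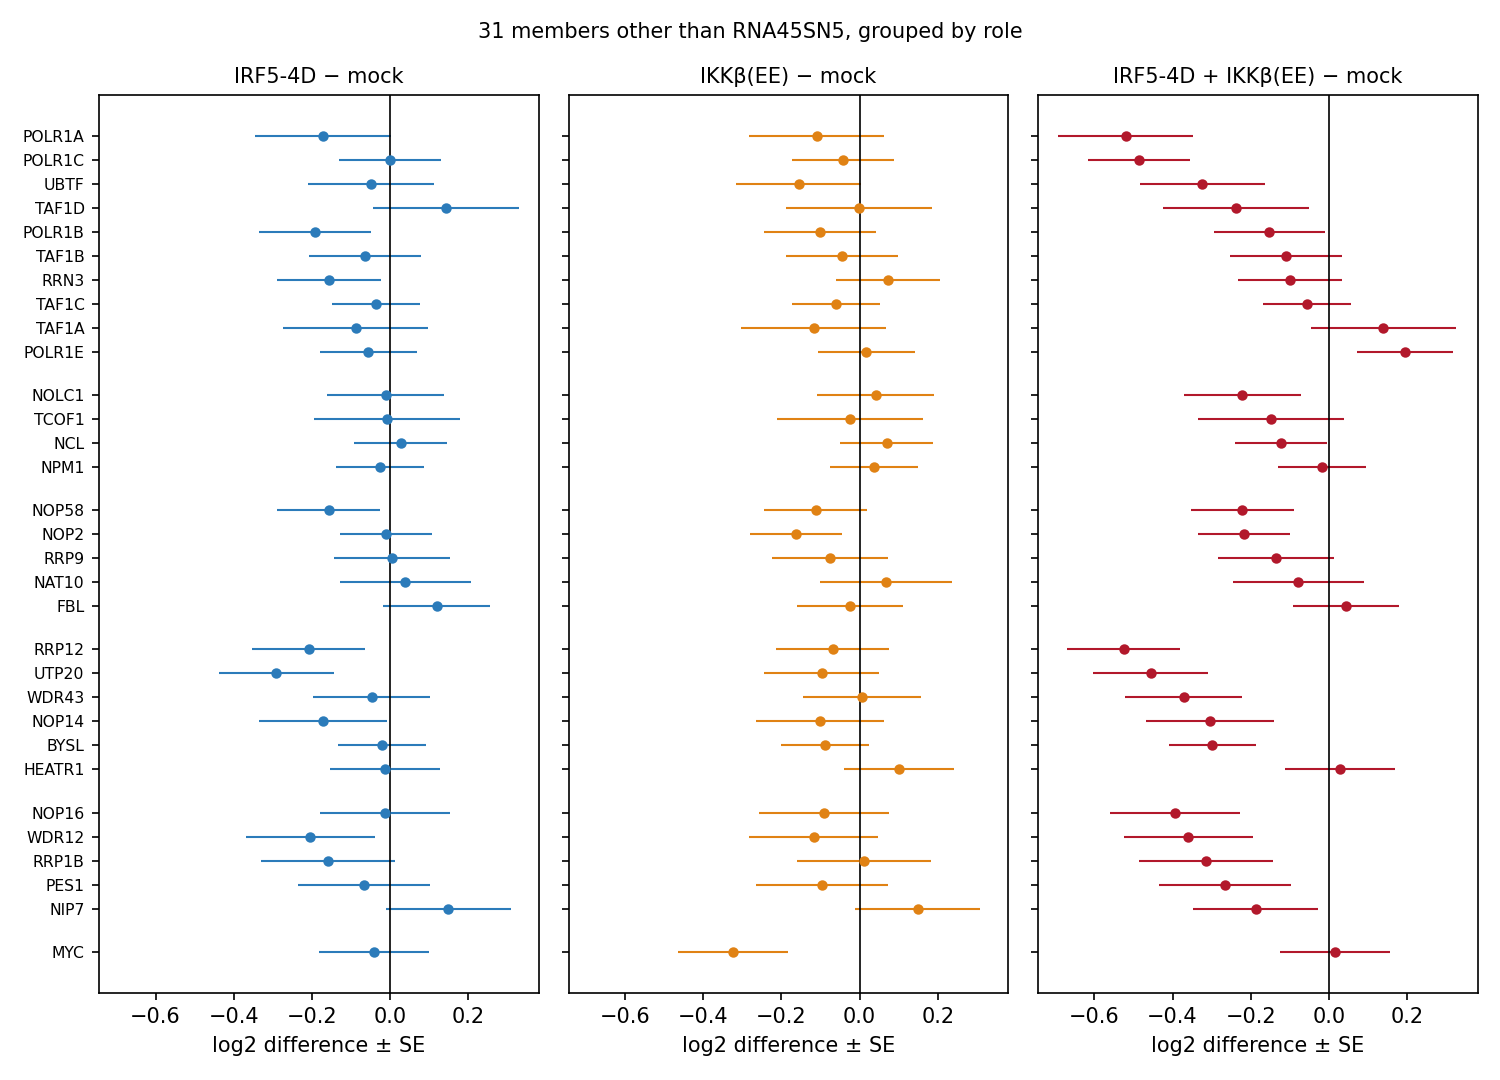
Log2 difference from mock with its SE (horizontal axis) for the 31 members other than RNA45SN5, in blocks by role, for IRF5-4D, IKKβ(EE) and the combination. In the right panel 26 of 31 points lie below 0, and none passed limma's test at gene level.

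RNA polymerase I and its factors were the first group by role. POLR1A is the largest subunit and POLR1B the second, which together form the catalytic centre, and POLR1C is a subunit shared with RNA polymerase III. POLR1C had the smallest adjusted p among the 31. On probe set 207515_s_at it read 8.74 and 8.77 in mock, 8.70 and 8.66 with IRF5-4D, 8.59 and 8.59 with IKKβ(EE), and 8.20 and 8.02 in the combination. Both combination arrays lay below all others. On that probe set POLR1C fell by 0.64 (SE 0.12) against mock, with an adjusted p of 0.0227 (limma, all probe sets fitted). Its other probe set, 209317_at, which had the higher mean and stood for the gene, read 8.69 and 8.84 in mock and 8.41 and 8.15 in the combination, a difference of -0.49 (SE 0.13, adjusted p = 0.0922 over all genes). The call on 207515_s_at was lost without mock replicate 1 (-0.65), mock replicate 3 (-0.62), combination replicate 1 (-0.73) or combination replicate 3 (-0.55), and when mock and the combination were fitted alone (adjusted p = 0.115).

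With both RNA45SN5 probe sets, this made 3 of 70 member probe sets called in the combination against mock, 4.29% beside 2.55% of all probe sets. Of the 70, 57 lay below 0 (56.7% of all probe sets did). Against each single construct 2 of 70 were called, both of RNA45SN5 (1.03% of all probe sets against IRF5-4D and 1.38% against IKKβ(EE)).

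POLR1A read 8.10 and 7.94 in mock, 7.90 and 7.79 with IRF5-4D, 7.83 and 7.98 with IKKβ(EE), and 7.23 and 7.76 in the combination. The combination arrays differed from each other by more than the other groups did, and the difference from mock of -0.52 (SE 0.17) did not pass (limma adjusted p = 0.175). It passed without combination replicate 3. Its other probe sets differed from mock by -0.17 and -0.30. POLR1B differed from mock by -0.15 and POLR1E, a subunit of the dimer that helps initiation, by 0.19 (SE 0.12, adjusted p = 0.500). POLR1E read 8.36 and 8.46 in mock and 8.60 and 8.61 in the combination, above all other arrays, although its other probe sets read down to -0.24.

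Other members bring the polymerase to the rDNA promoter. UBTF, which binds along the rDNA repeat, differed by -0.32 (SE 0.16, adjusted p = 0.373) on the probe set used, and its 5 probe sets ranged up to 0.098. RRN3, the initiation factor that recruits the polymerase, differed by -0.099 (95% interval -0.40 to 0.20). The subunits of selectivity factor 1, which reads the promoter, differed by 0.14 for TAF1A, -0.11 for TAF1B, -0.057 for TAF1C and -0.24 for TAF1D. Of the 10 genes in this group 8 lay below 0 and none passed over all genes, with 2 at an unadjusted p under 0.05.

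Transcripts of the abundant nucleolar proteins were close to mock. NPM1, the chaperone nucleophosmin, read 13.92 and 14.01 in mock, 13.99 and 13.89 with IRF5-4D, 14.00 and 14.00 with IKKβ(EE), and 13.91 and 13.99 in the combination. The groups overlapped, and the 95% interval of the combination against mock was -0.27 to 0.24. NCL, nucleolin, which binds the nascent precursor, read 12.81 and 12.84 in mock and 12.66 and 12.74 in the combination, and the 4 arrays of the single constructs ranged from 12.79 to 12.98. Its difference from mock was -0.12 (SE 0.12, limma adjusted p = 0.681). NOLC1, a scaffold of the nucleolus and of Cajal bodies, differed by -0.22 on the probe set used and by -0.22 to -0.40 over its 3 probe sets, none of which passed. TCOF1, the treacle protein that acts with UBTF, differed by -0.15.

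Of the genes for snoRNA-guided and other rRNA modification, 0 of 5 passed and 0 of 5 had an unadjusted p under 0.05 in limma. FBL, the methyltransferase fibrillarin of box C/D complexes, read 12.14 and 12.27 in mock and 12.20 and 12.29 in the combination. The groups overlapped, and the difference was 0.043 (95% interval -0.26 to 0.35). NOP58, another core protein of these complexes, differed by -0.22 (SE 0.13), and RRP9, which binds the U3 small nucleolar RNA, by -0.14. NOP2, a methyltransferase of 28S rRNA, differed by -0.22, and NAT10, an rRNA acetyltransferase, by -0.078.

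The small subunit processome genes had a median of -0.34 in the combination against mock. Of 6 members 5 lay below 0, 4 had an unadjusted p under 0.05 and 0 passed in limma over all genes. RRP12, an export and maturation factor, read 8.01 and 8.07 in mock, 7.64 and 8.02 with IRF5-4D, 7.92 and 8.02 with IKKβ(EE), and 7.58 and 7.45 in the combination, a difference of -0.53 (SE 0.14, adjusted p = 0.101). Both combination arrays lay below the others, but the 5 RRP12 probe sets ranged from -0.53 to 0.41. UTP20, a scaffold of early precursor cleavage, read 9.20 and 8.90 in mock and 8.44 and 8.74 in the combination, a difference of -0.46 (SE 0.15, adjusted p = 0.162). WDR43 read 10.63 and 10.77 in mock and 10.13 and 10.54 in the combination, and BYSL, which matures the 40S subunit, read 9.0 and 8.95 in mock and 8.71 and 8.64 in the combination. For both the groups did not overlap, and their differences of -0.37 (SE 0.15) and -0.30 (SE 0.11) had adjusted p of 0.265 and 0.228. NOP14 differed by -0.30, and HEATR1, which also acts in transcription of the precursor, by 0.028.

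All 5 measured factors of the large subunit lay below 0 in the combination and 0 passed in limma, with 1 at an unadjusted p under 0.05. That was NOP16, at 10.71 and 11.10 in mock and 10.46 and 10.57 in the combination, a difference of -0.39 (SE 0.17, adjusted p = 0.288). Each of its 4 probe sets lay below 0. WDR12 and PES1, members of the complex that also holds BOP1, differed by -0.36 (SE 0.17) and -0.27 (SE 0.17). RRP1B differed by -0.31 (SE 0.17). NIP7, which acts in 60S assembly, read 10.15 and 10.42 in mock, 10.46 and 10.40 with IRF5-4D, 10.22 and 10.64 with IKKβ(EE), and 10.11 and 10.08 in the combination. Its interaction of -0.49 (SE 0.23) was the second lowest of the members and did not pass (limma adjusted p = 0.836).

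**Figure D4:**
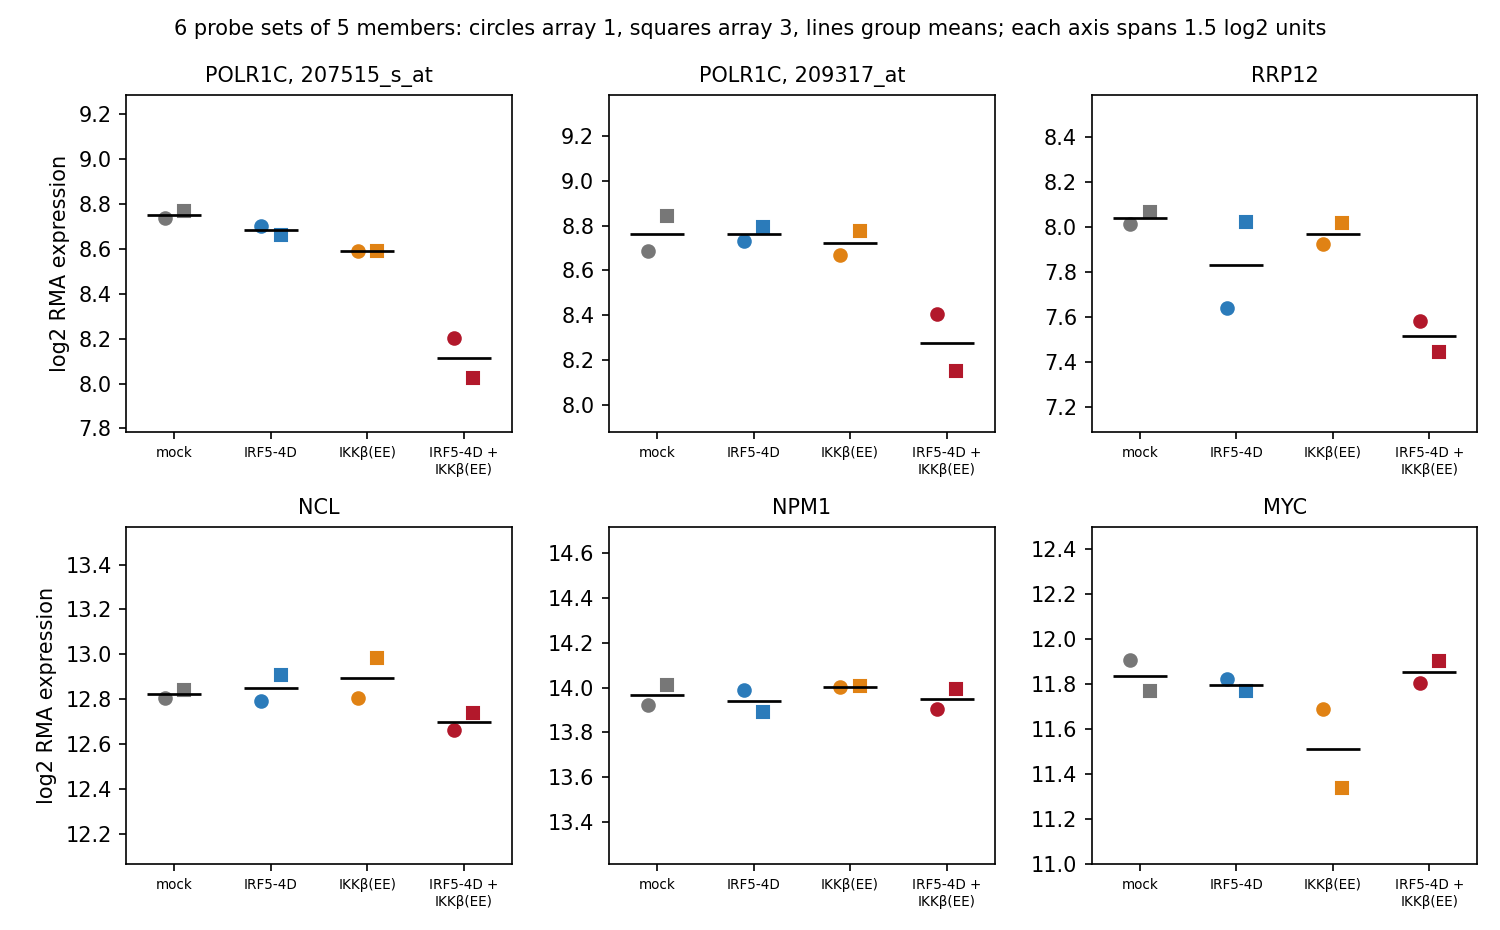
Log2 RMA expression (vertical axis, 1.5 log2 units in every panel) of POLR1C on 2 probe sets and of RRP12, NCL, NPM1 and MYC in the 4 groups, with circles for array 1, squares for array 3 and lines for group means. The combination is lowest for POLR1C, RRP12 and NCL, the groups overlap for NPM1, and the IKKβ(EE) arrays are lowest for MYC.

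Of 19 members with several probe sets, 13 had each of them below 0 in the combination against mock and 6 had values on both sides of 0. The 13 include RNA45SN5, and the share among all genes with several probe sets is not given here.

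MYC activates transcription of many ribosome biogenesis genes. It read 11.91 and 11.77 in mock, 11.82 and 11.77 with IRF5-4D, 11.69 and 11.34 with IKKβ(EE), and 11.80 and 11.90 in the combination. The combination overlapped with mock, at a difference of 0.015 (95% interval -0.30 to 0.33). With IKKβ(EE) both arrays lay below mock, at -0.32 (SE 0.14), which did not pass over all genes (limma adjusted p = 0.674). The combination was 0.34 (SE 0.14) above IKKβ(EE), which also did not pass (adjusted p = 0.399).

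MYC binds DNA with its partner MAX at the E-box CACGTG, so this motif was searched in the RefSeq promoter windows of the members, which run from 250 bases before to 50 bases after a gene's start (build GRCh38.p14). Windows were given for 27 members, 33 windows in all, and RNA45SN5 and MYC had none. The E-box, which reads the same on both strands, stood in 10 of 33 member windows, or 30.3%, beside 7.26% of all 35116 windows. The sequences below are shown because they hold the E-box in the 5 measured members with the lowest combination values among those with the motif, a choice made after the values were seen. Each is 30 bases of the gene's strand with the E-box in capitals.
UTP20: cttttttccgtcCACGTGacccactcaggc
WDR43: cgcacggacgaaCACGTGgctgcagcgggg
NOP14: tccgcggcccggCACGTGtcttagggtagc
BYSL: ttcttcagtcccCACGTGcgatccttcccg
PES1: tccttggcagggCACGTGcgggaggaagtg

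They lie at chr12:101280083-101280112 on the plus strand (UTP20), chr2:28894658-28894687 on the plus strand (WDR43), chr4:2963374-2963403 on the minus strand (NOP14), chr6:41921515-41921544 on the plus strand (BYSL) and chr22:30591880-30591909 on the minus strand (PES1). The E-box starts 10 bases before the gene start in UTP20 and 3, 15, 28 and 13 bases after it in WDR43, NOP14, BYSL and PES1. The 9 measured members with an E-box had a median of -0.27 in the combination against mock, between -0.46 and 0.043, and 15 with a window but no E-box had a median of -0.15, between -0.52 and 0.14, so both ranges overlapped. The core of an interferon-stimulated response element stood in 1 of 33 windows, that of POLR1B (3.57% of all windows), and a κB-like motif in 3 of 33, of PES1 and RRN3 (1.91% of all windows), both searched on both strands. A match is not evidence of binding.

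Other genes of the pathway were read from lists of known factors. Of 51 other small subunit factors 1 fell in the combination against mock and 0 rose, and 45 of 51 lay below 0 with a median of -0.22. Over all genes 3.16% were called, 0.501% were called lower and 55.6% lay below 0. Of 19775 genes 3167 had an unadjusted p under 0.05 in this comparison. These shares stand beside the other lists too. The gene that fell was LTV1, which helps mature the 40S subunit, by 0.64 (SE 0.11, limma adjusted p = 0.0180). Its call was lost without mock replicate 1 (-0.63), mock replicate 3 (-0.65), combination replicate 1 (-0.70) or combination replicate 3 (-0.58), and when mock and the combination were fitted alone (adjusted p = 0.0934). Of 50 other large subunit factors 2 fell and 0 rose, 43 of 50 lay below 0 and the median was -0.17. RRP15, which acts in 60S maturation, read 9.77 and 9.60 in mock, 9.43 and 9.35 with IRF5-4D, 9.39 and 9.55 with IKKβ(EE), and 8.82 and 8.76 in the combination, and fell by 0.89 (SE 0.12, adjusted p = 0.00489), a call kept in 18 of 18 alternatives, although averaging the probe sets of RRP15 gave -0.57 (adjusted p = 0.0475). NOL12, a nucleolar RNA-binding protein, fell by 0.63 (SE 0.11, adjusted p = 0.0190), a call lost without mock replicate 1 (-0.57), combination replicate 1 (-0.63) or combination replicate 3 (-0.64), and when mock and the combination were fitted alone (adjusted p = 0.0967).

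Of 15 other subunits and factors of RNA polymerase I none passed against mock in limma, 3 had an unadjusted p under 0.05, and POLR2L read -0.43 (SE 0.18, adjusted p = 0.275). TTF1, which terminates transcription of the rDNA, fell by 0.58 against IRF5-4D (adjusted p = 0.0490), a call lost when any of the 8 arrays was omitted, where the value ranged from -0.64 to -0.52. Of 24 exosome and rRNA trimming genes 0 passed, with 2 at an unadjusted p under 0.05 and POP7 at -0.51 (adjusted p = 0.0834), and the median was -0.17. Of 20 genes of RNA polymerase III and 5S RNA transcription 0 passed, with 6 at an unadjusted p under 0.05 and BRF2 at -0.46, and the median was -0.20.

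The cytosolic ribosomal protein genes had values close to 0. Of 80 listed, 53 were measured. Of these 53, 0 passed in limma, 0 had an unadjusted p under 0.05, 18 lay below 0 and the median was 0.013. They ranged from -0.072 to 0.38, with RPL36A at the upper end (adjusted p = 0.352). RPL36A read 4.98 and 4.80 in mock and 5.50 and 5.05 in the combination, near the array medians. The 12 reference genes had a median of 0.037, and none passed.

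**Figure D5:**
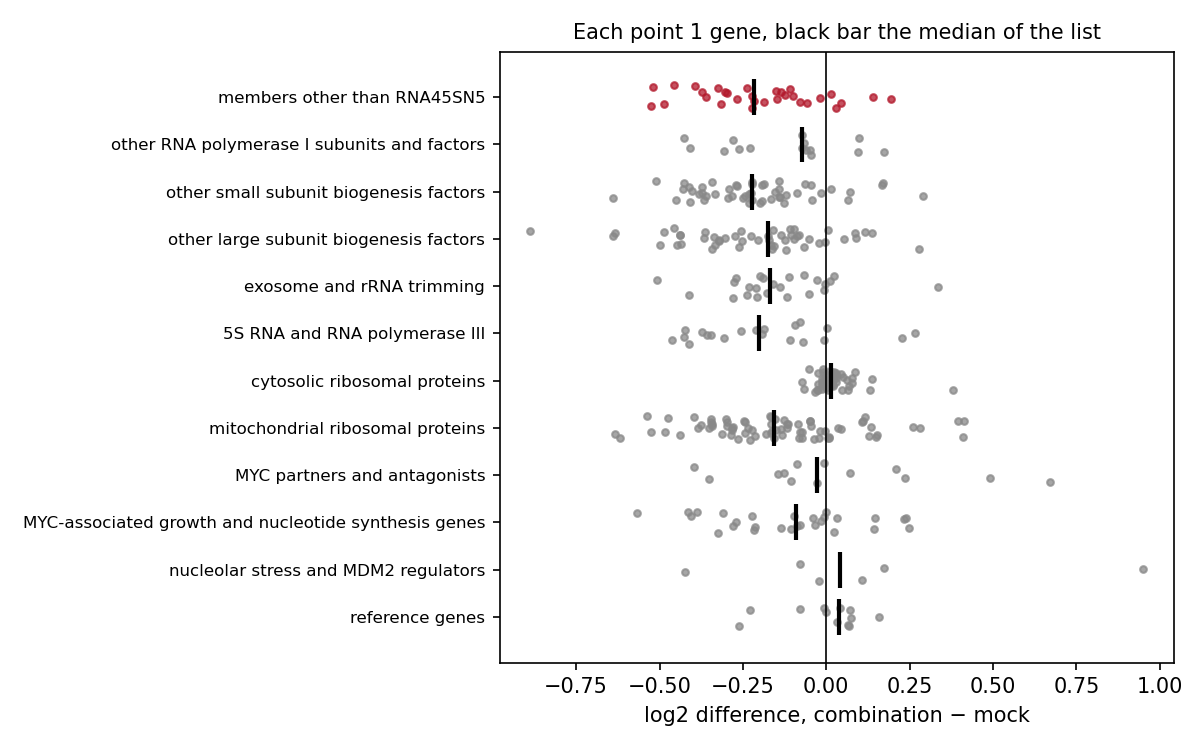
Log2 difference of the combination from mock (horizontal axis) for each gene of the pathway lists, with a black bar at each list's median and the 31 members other than RNA45SN5 in red. Medians lie at -0.22 for the members and for the other small subunit factors and at 0.013 for the cytosolic ribosomal proteins.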

How the data were processed

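The deposited values are log2 expression levels of probe sets, made by the authors with RMA per the submitters' processing notes, with no version or chip definition stated in those notes. The table held 54675 probe sets on 8 arrays. Probe sets were named from the platform annotation of 2016, and those with 1 symbol and no control name (41091) were kept. A gene was represented by its probe set with the highest mean (19775 genes), and no filter on level was applied. Group means were fitted to all 8 arrays with limma 3.58.1 under R 4.3.3 (lmFit, eBayes, trend and robust off), which left 4 residual and 5.09 prior degrees of freedom. Benjamini-Hochberg adjustment ran over all genes, or over all probe sets where every probe set was fitted, with calls under 0.05. Promoter sequences came from RefSeq (GRCh38.p14). The SE is limma's moderated SE.

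The members and lists were chosen with earlier results of these data known. Values are printed for RNA45SN5, MYC and called members, every member is accounted for by role, and each list gives up to 3 called rises and 3 called falls, or its largest difference. Values of other members per array were added after they were seen. No labels say that arrays of a group came from separate cultures beyond the words biological duplicates. The numbers 1 and 3 were not taken to pair the arrays, since nothing in the labels says what they mark and not every pair of groups had a correlation over 0.1 between the deviations of same-numbered arrays. It was 0.11 to 0.34 in 5 of 6 pairs of groups and -0.073 between mock and the combination. Alternatives were other probe set choices, scalings, variance models, thresholds, a replicate block and leaving out each array. The fit was also run on simulated data with independent normal noise. Those data held no shift by array number, so that run does not cover such a shift.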

Additional observations from a re-analysis of the deposited data

Results flagged for a closer look

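The interaction of IRF5-4D and IKKβ(EE) on RNA45SN5 was -3.62 (log2, SE 0.43, limma adjusted p = 0.0238). By this estimate the difference made by 1 construct differed with the other construct present. On probe set 225767_at the interaction was -2.64 and did not pass (limma adjusted p = 0.0848 in the fit of every probe set). The call at gene level was also lost in several alternatives, given below. Without IRF5-4D, IKKβ(EE) cells read 0.85 from mock, and with IRF5-4D in both groups, adding IKKβ(EE) gave -2.77. Without IKKβ(EE), IRF5-4D cells read 0.58 from mock, and with IKKβ(EE) in both groups, adding IRF5-4D gave -3.04.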

How the results depend on the processing

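The fall of RNA45SN5 in the combination against mock kept its direction and its call in 18 of 18 alternatives, with log2 values from -2.43 to -1.47 and adjusted p from 0.000466 to 0.0373. The same held against IRF5-4D (-3.31 to -1.95) and against IKKβ(EE) (-3.14 to -2.16). No result among those examined changed sign. Members called in the combination against mock numbered 1, and became 2 when a gene's probe sets were averaged and 2 at an adjusted p under 0.1, where POLR1C was added each time, and ranged from 1 to 2 with 1 array left out, where POLR1A was added without combination replicate 3. Members called for the interaction numbered 1 and became 0 with averaged probe sets, 0 without _x_at probe sets, 0 with genes above the median level and 0 with robust variance, and ranged from 0 to 1 with 1 array left out. Called member probe sets numbered 3 and ranged from 1 to 3 with 1 array left out. The median of the 31 other members ranged from -0.28 to -0.14 and was -0.19 after median centring. With a replicate block for the numbers 1 and 3 the count of members called stayed at 1 in the combination against mock, and the adjusted p of RNA45SN5 became 0.000466. In fits without 1 array the lone array of a group is assumed to vary like the others.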

Other observations

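Mitochondrial ribosomal protein genes, which serve the separate ribosomes of mitochondria, had 0 of 75 members past limma's test in the combination against mock, with 17 at an unadjusted p under 0.05, of which 16 were lower (7.5% of all genes were lower at that threshold). Of the 75, 58 lay below 0 (55.6% of all genes did) and the median was -0.16, beside 0.013 for the cytosolic ribosomal proteins. MRPL1 read -0.63 (SE 0.14, adjusted p = 0.0524).

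Among 13 MYC partners and antagonists 0 passed in limma, 3 had an unadjusted p under 0.05, and MXI1, an antagonist that competes for MAX, read 0.67 (SE 0.20, adjusted p = 0.137). Over all genes 3167 of 19775 had an unadjusted p under 0.05 in the combination against mock. Of 28 growth and nucleotide synthesis genes associated with MYC 0 passed, 1 had an unadjusted p under 0.05, the median was -0.092 and the chaperonin gene HSPE1 read -0.57 (SE 0.26, adjusted p = 0.338). CDKN1A, which encodes the cell cycle inhibitor p21, rose by 0.95 (SE 0.19, adjusted p = 0.0285) in the combination against mock, as 1 of 6 nucleolar stress and MDM2 genes. With IKKβ(EE) alone CDKN1A read 0.98 above mock (adjusted p = 0.0744), and the combination differed from IKKβ(EE) by -0.028 (SE 0.19). Leaving out mock replicate 3 gave 0.77, and the call was also lost without either IRF5-4D array (0.95) or either combination array (0.96 and 0.94), and when mock and the combination were fitted alone (adjusted p = 0.0523).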
